A study of Mus musculus with 24 samples.

Results

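The enzymes of glycolysis, the switch that sends pyruvate to lactate or to the mitochondrion, and the oxygen-sensing proteins that control them are described here through 32 genes. They were taken by gene symbol from a table of 24273 genes, and each symbol matched exactly 1 row. By role, 4 genes act on glucose and glucose phosphate, 6 encode phosphofructokinases or the enzymes that make their activator, 10 encode enzymes of lower glycolysis, 2 encode lactate dehydrogenase subunits, 6 encode pyruvate dehydrogenase subunits or kinases, and 4 belong to hypoxia sensing. In all, 31 of the 32 had enough signal to be tested, and the exception was Pdk4, which lay between -0.78 and -0.52 in every library.

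Glycolysis breaks glucose down to pyruvate in the cytosol, and macrophages exposed to bacterial products raise their glucose use and their lactate output. Phosphofructokinase sets the pace of the pathway and is activated by fructose 2,6-bisphosphate, which the PFKFB enzymes make and break down. Pyruvate either becomes lactate or enters the mitochondrion through pyruvate dehydrogenase, which the PDK kinases switch off. HIF-1α, the product of Hif1a, is destroyed when oxygen is present because the prolyl hydroxylases encoded by Egln1 and Egln3 mark it for degradation, and when it is stable it drives transcription of many glycolytic genes, of Pdk1 and of Bnip3, a mitophagy receptor.

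Gene expression was measured by RNA sequencing of macrophages grown from the bone marrow of C57BL/6 mice. Every group carried LysM-Cre, a Cre recombinase gene at the lysozyme locus Lyz2 that is active in myeloid cells. Control cells are labelled LysM-Cre, and FosKO cells carried floxed Fos alleles as well, so that Cre was meant to delete Fos, which encodes a subunit of the transcription factor AP-1. The series' design names LysM-Cre mice as controls whereas the study's results give the controls 1 floxed allele, and the values cannot tell which applied. Cells were left untreated (0 h) or received 100 ng/ml lipopolysaccharide (LPS, a ligand of TLR4 from Salmonella minnesota) for 0.5, 1 or 2 h, with 3 libraries in each of the 8 groups and 24 in all. The age of the mice was not given in the sources used here, and the 3 libraries of a group are described as biological replicates without saying whether they came from separate animals or cultures, so that p-values measure the spread between these libraries.

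All values are the authors' normalised log2 values. Differences between genotypes are FosKO minus LysM-Cre, SE is the standard error from 1 limma fit to all 24 libraries, and p-values were adjusted over the 13901 genes tested. A gene was called higher or lower at an adjusted p under 0.05. Within groups, Pearson's r across genes ran from 0.995 to 0.998. The SD of a listed gene within a group had a median of 0.05 and a maximum of 0.24. Fos itself did not check the labels, because the table has 1 value per gene and does not separate the deleted part. Its mean was 11.11, 13.52, 11.15 and 9.52 in LysM-Cre in order of time, and 12.60, 12.75, 12.78 and 12.80 in FosKO. The groups are therefore named by their labels. The 18S ribosomal RNA gene Rn18s-rs5 was low (16.65 to 17.00) in 5 libraries, of which 2 LysM-Cre and 1 FosKO library were at 1 h and 1 of each genotype was at 0.5 h, and high (18.57 or more) in the other 19. The 7 macrophage markers summed to between 17.10 and 17.51 in every library. In FosKO 3 of them were higher and 4 lower without LPS, 3 and 1 after 0.5 h, 3 and 2 after 1 h, and 4 and 0 after 2 h. Of all tested genes, 19.5% were higher and 15.9% lower without LPS, and 24.4% and 20.3% after 2 h. Of 7 neutrophil markers 6 were found and 3 tested. Their sum ran from 5.93 to 6.99 in LysM-Cre and from 5.45 to 6.09 in FosKO, and all 3 were lower in FosKO at every time but 0.5 h, when 2 were. Of 4 T cell markers 1, Cd4, was tested and was higher in FosKO by 0.36 to 0.44 at the 4 times. Of 3 tested dendritic cell markers, 1 was higher after 0.5 h, 2 were higher after 1 h and 1 was lower after 2 h. The 1 tested B cell marker was lower at 0.5, 1 and 2 h. The 1 tested mast cell or basophil marker was lower at 0, 0.5 and 1 h. Neither of the 2 tested stromal markers was called. The part of cells other than macrophages in the results was not tested.

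The promoters of 2 hypoxia-linked genes are shown, because Hif1a answered LPS differently in the genotypes and Bnip3 was lower in FosKO at every time. Each is the 250 bases before the most upstream start site that RefSeq lists for the gene on GRCm38.p6, 5′ to 3′ on the gene's own strand. The gene models used for positions start both genes further upstream. The Bnip3 window therefore ends inside its gene, and the Hif1a window lies wholly inside its gene, whose model starts at 73901375. Capitals mark ACGTG, the core of the hypoxia response element bound by HIF-1, and CACGTG, an E-box that contains it, on either strand.
Hif1a, chr12:73907617-73907866, plus strand: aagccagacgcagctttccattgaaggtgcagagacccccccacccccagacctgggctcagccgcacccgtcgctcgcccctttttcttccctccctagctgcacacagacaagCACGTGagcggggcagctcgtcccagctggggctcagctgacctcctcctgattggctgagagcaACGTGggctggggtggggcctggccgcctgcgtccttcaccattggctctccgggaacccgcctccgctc
Bnip3, chr7:138909507-138909756, minus strand: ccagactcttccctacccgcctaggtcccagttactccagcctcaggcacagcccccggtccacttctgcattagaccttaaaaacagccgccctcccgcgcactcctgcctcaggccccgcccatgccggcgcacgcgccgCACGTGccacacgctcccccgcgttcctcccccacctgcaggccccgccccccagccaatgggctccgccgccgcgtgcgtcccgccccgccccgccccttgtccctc
The core ACGTG occurred in the promoters of 14 of the 32 genes (43.8%) and in 16.5% of 27025 promoters of the same length, both strands searched. The E-box CACGTG occurred in 5 of the 32, namely Bnip3, Hif1a, Ldha, Pdk2 and Pfkm, and in 6.04% of all promoters. TGANTCA, the element bound by AP-1, occurred in 0 of the 32 windows and in 6.85% of all promoters. These are matches of letters, not binding sites, and a window without a match says only that the letters are not in it.

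Between the genotypes, more of the 31 tested genes were lower than higher in FosKO. Without LPS, 14 were lower and 6 higher, where 15.9% of all tested genes were lower and 19.5% higher. After 0.5 h, 13 were lower (19.7% of all genes) and 5 higher (21.2%). After 1 h, 14 were lower (15.9%) and 3 higher (18%). After 2 h, 12 were lower (20.3%) and 7 higher (24.4%). The median difference of the 31 genes was -0.11, -0.10, -0.10 and -0.09 in order of time, where the median of all tested genes was 0.00 at each time. In all, 8 genes were lower at all 4 times, namely Gpi1, Aldoa, Tpi1, Eno1, Eno2, Pdk1, Egln1 and Bnip3, a pattern shown by 7.11% of all tested genes. Hk2, Hk3 and Ldhb were higher at all 4 times, as were 11.4% of all tested genes. Hk1 was lower at 3 times and higher at 2 h, and 6 genes (Aldoc, Gapdh, Pgk1, Pgam1, Eno3 and Pdha1) were called at no time. In bulk RNA, fewer cells of a type and less RNA per cell cannot be told apart. Within the high and the low 18S libraries taken separately, the 18 genes called at 0.5 h and the 17 at 1 h had the same sign. These genes were picked by the pooled difference of the same libraries, so that the agreement was largely fixed in advance and decides nothing. The low set held 1 library of each genotype at 0.5 h. At 1 h the low set held 1 FosKO and the high set 1 LysM-Cre library. With only the high 18S libraries, 11 of the 31 genes were called at 1 h instead of 17. Under quantile normalisation 17 genes were lower and 6 higher after 2 h. With only the 2 compared groups in the fit, 10 genes were lower and 4 higher without LPS. Tpi1 was then not called without LPS (limma adjusted p = 0.0546). That setting gave 20 calls after 0.5 h, 19 after 1 h and 17 after 2 h.

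**Figure D1:**
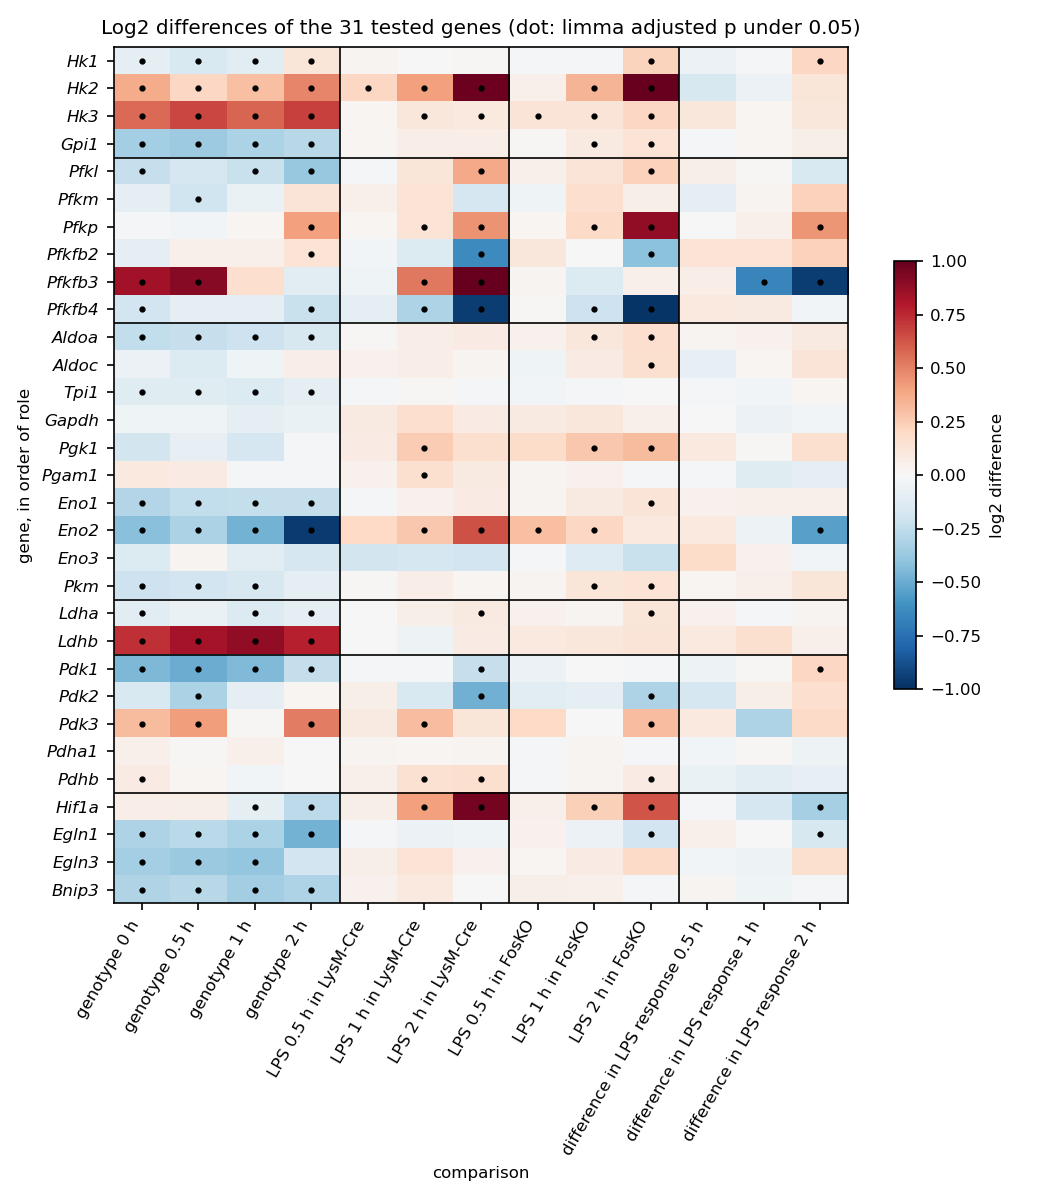
Log2 differences (colour) of the 31 tested genes (rows, in order of role, with lines between roles) in the 13 comparisons (columns). Dots mark genes called by limma at an adjusted p under 0.05. In the 4 genotype columns blue cells prevail, and the genes called higher are Hk2, Hk3 and Ldhb at every time, Pfkfb3 at 0 and 0.5 h, Pdk3 at all times but 1 h, Hk1, Pfkp and Pfkfb2 at 2 h, and Pdhb at 0 h, and colours stop at a difference of 1. Under quantile normalisation many pale red cells of the LPS columns turn negative.

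The hexokinases, which phosphorylate glucose to hold it in the cell, did not move as a group. Hk3 (chr13:55005985-55021385) lay in LysM-Cre at 12.94, 12.96 and 12.89 without LPS, then 12.98, 12.94 and 12.95 after 0.5 h, 13.03, 13.04 and 13.05 after 1 h, and finally 13.05, 13.00 and 13.04 after 2 h. In FosKO Hk3 lay at 13.44, 13.59 and 13.45 without LPS, then 13.56, 13.63 and 13.69 after 0.5 h, 13.57, 13.68 and 13.61 after 1 h, and finally 13.67, 13.74 and 13.72 after 2 h. Every FosKO library was above every LysM-Cre library, and the difference was 0.57 (SE 0.04, limma adjusted p = 8.26e-10) without LPS and 0.68 (SE 0.04, limma adjusted p = 3.09e-11) at 2 h, which is a 1.48-fold and a 1.60-fold higher level. Hk2 (chr6:82725025-82774454), the hexokinase known for induction by HIF-1 and growth signals, lay in LysM-Cre at 9.88, 9.82 and 9.87 without LPS, then 10.09, 10.06 and 10.07 after 0.5 h, 10.31, 10.27 and 10.22 after 1 h, and finally 10.78, 10.83 and 10.90 after 2 h. In FosKO Hk2 lay at 10.09, 10.26 and 10.33 without LPS, then 10.21, 10.29 and 10.33 after 0.5 h, 10.46, 10.58 and 10.67 after 1 h, and finally 11.26, 11.40 and 11.33 after 2 h. The groups did not overlap at any time, and the difference was 0.37 (SE 0.06, limma adjusted p = 2.43e-05) without LPS, 0.21 (SE 0.06, limma adjusted p = 0.00517) after 0.5 h, 0.30 (SE 0.06, limma adjusted p = 0.0002) after 1 h and 0.49 (SE 0.06, limma adjusted p = 4.12e-07) at 2 h. Hk1, the hexokinase of most tissues, was lower by a small amount without LPS (-0.10, SE 0.03, limma adjusted p = 0.0106) and higher at 2 h (0.12, SE 0.03, limma adjusted p = 0.00221), where quantile normalisation turned the sign (-0.01). The call without LPS was lost without FosKO replicate 1 (limma adjusted p = 0.0681). Gpi1, which converts glucose 6-phosphate to fructose 6-phosphate, was lower at every time, by 0.34 (SE 0.03, limma adjusted p = 7.26e-08) without LPS and 0.28 (SE 0.03, limma adjusted p = 5.52e-07) at 2 h.

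Of the 6 phosphofructokinase and PFKFB genes, 3 differed without LPS and 4 after 2 h, beside 35.4% and 44.6% of all tested genes. Pfkfb3 (chr2:11471433-11554077), the PFKFB isoform with the strongest kinase activity and hence a maker of the activator, lay in LysM-Cre at 9.54, 9.48 and 9.54 without LPS, then 9.57, 9.41 and 9.45 after 0.5 h, 9.96, 10.03 and 10.14 after 1 h, and finally 10.43, 10.47 and 10.66 after 2 h. In FosKO Pfkfb3 lay at 10.16, 10.41 and 10.50 without LPS, then 10.26, 10.31 and 10.58 after 0.5 h, 10.17, 10.23 and 10.26 after 1 h, and finally 10.38, 10.31 and 10.54 after 2 h. The untreated FosKO libraries were above every LysM-Cre library at 0, 0.5 and 1 h and overlapped with those at 2 h. The difference was 0.84 (SE 0.09, limma adjusted p = 3.06e-07) without LPS and 0.91 (SE 0.09, limma adjusted p = 7.26e-08) at 0.5 h. After 1 h it was 0.17 (SE 0.09, limma adjusted p = 0.138), with no overlap. After 2 h it was -0.11 (SE 0.09, limma adjusted p = 0.329), and the groups overlapped. Pfkp (chr13:6579768-6648777), the platelet-type subunit of phosphofructokinase, lay in LysM-Cre at 12.06, 12.08 and 12.05 without LPS, then 12.07, 12.08 and 12.11 after 0.5 h, 12.24, 12.17 and 12.21 after 1 h, and finally 12.49, 12.52 and 12.52 after 2 h. In FosKO Pfkp lay at 12.03, 12.01 and 12.07 without LPS, then 12.09, 12.03 and 12.05 after 0.5 h, 12.20, 12.16 and 12.34 after 1 h, and finally 12.88, 12.95 and 12.94 after 2 h. The groups overlapped until 1 h and then separated, with a difference of 0.41 (SE 0.03, limma adjusted p = 5.34e-09) at 2 h. Pfkl (chr10:77986947-78010083), the liver-type subunit, lay in LysM-Cre at 10.20, 10.01 and 10.01 without LPS, then 10.10, 10.04 and 10.04 after 0.5 h, 10.21, 10.18 and 10.19 after 1 h, and finally 10.45, 10.49 and 10.41 after 2 h. In FosKO Pfkl lay at 9.85, 9.95 and 9.74 without LPS, then 9.82, 9.97 and 9.89 after 0.5 h, 10.00, 10.11 and 9.82 after 1 h, and finally 9.97, 10.22 and 10.03 after 2 h. No FosKO library reached the LysM-Cre libraries of its time. Pfkl was lower by 0.38 (SE 0.07, limma adjusted p = 0.000183) after 2 h. Its calls without LPS (-0.23, SE 0.07, limma adjusted p = 0.0162) and after 1 h (-0.22, SE 0.07, limma adjusted p = 0.0224) each rested on LysM-Cre replicate 1 and FosKO replicate 3. Without the first, limma adjusted p was 0.105 for untreated cells and 0.0627 after 1 h. Without the second it was 0.102 and 0.158. Pfkm, the muscle-type subunit, was called at 1 time, 0.5 h (-0.20, SE 0.08, limma adjusted p = 0.0451). That call was lost without any of the 6 libraries other than LysM-Cre replicate 2, with limma adjusted p between 0.0605 and 0.159. Thus the 3 subunits of 1 enzyme were, at 2 h, higher (Pfkp), lower (Pfkl) and not called (Pfkm, 0.13, SE 0.08, limma adjusted p = 0.183).

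The remaining PFKFB isoforms are bifunctional enzymes that make and break down fructose 2,6-bisphosphate. Pfkfb4 (chr9:108991778-109032228) lay in LysM-Cre at 9.85, 9.83 and 9.77 without LPS, then 9.72, 9.69 and 9.77 after 0.5 h, 9.48, 9.51 and 9.53 after 1 h, and finally 8.92, 8.87 and 8.81 after 2 h. In FosKO Pfkfb4 lay at 9.72, 9.64 and 9.51 without LPS, then 9.63, 9.62 and 9.64 after 0.5 h, 9.48, 9.38 and 9.37 after 1 h, and finally 8.66, 8.69 and 8.57 after 2 h. It was lower in FosKO by 0.19 (SE 0.05, limma adjusted p = 0.00256) without LPS and 0.22 (SE 0.05, limma adjusted p = 0.000492) at 2 h. Pfkfb2 (chr1:130689182-130729253) lay in LysM-Cre at 8.44, 8.44 and 8.51 without LPS, then 8.41, 8.50 and 8.40 after 0.5 h, 8.33, 8.23 and 8.42 after 1 h, and finally 7.82, 7.83 and 7.84 after 2 h. In FosKO Pfkfb2 lay at 8.38, 8.32 and 8.43 without LPS, then 8.46, 8.52 and 8.46 after 0.5 h, 8.41, 8.29 and 8.42 after 1 h, and finally 7.94, 8.08 and 7.88 after 2 h. Its only genotype call, at 2 h (0.14, SE 0.05, limma adjusted p = 0.0462), was lost under 11 of 16 alternatives, among them leaving out any of the 6 libraries other than FosKO replicate 3 (limma adjusted p up to 0.265).

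**Figure D2:**
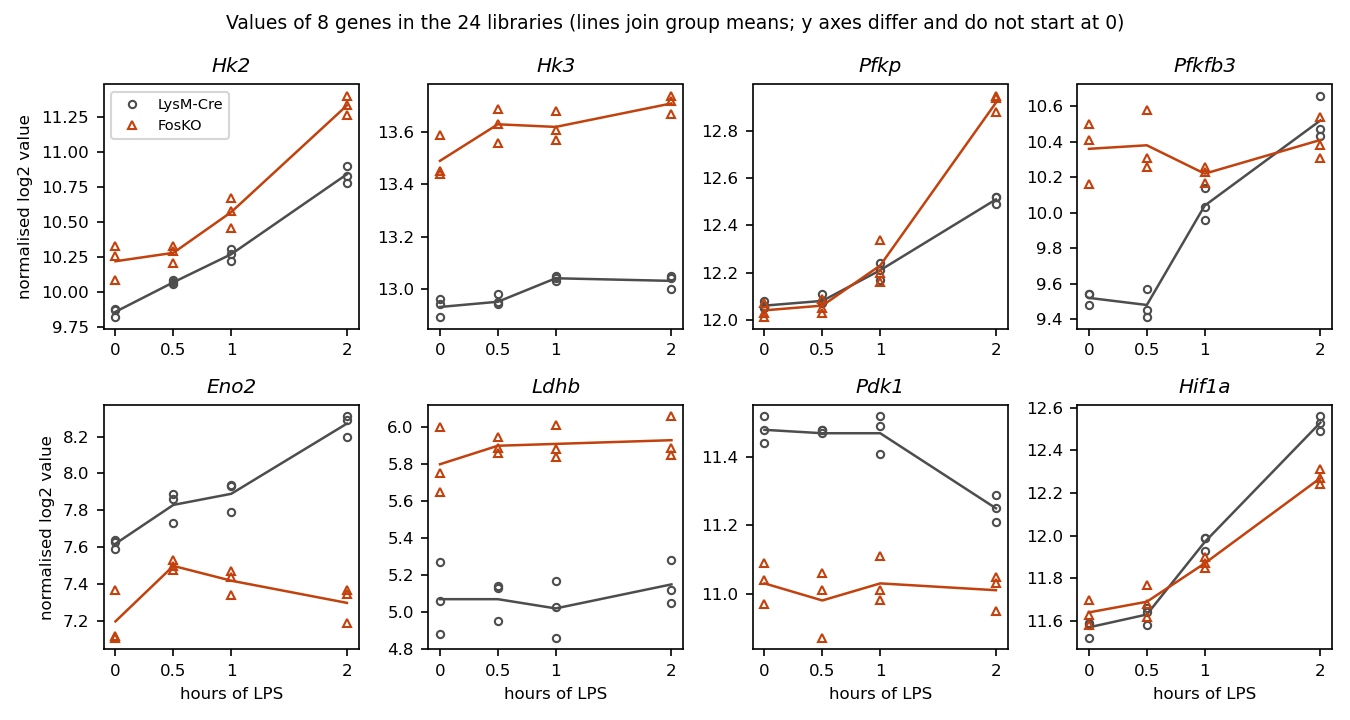
Normalised log2 values (y axis, a different range in each panel) of 8 genes against hours of LPS (x axis). Circles are the LysM-Cre libraries, triangles the FosKO libraries, 3 a group, and lines join the group means. Hk3 and Ldhb lie apart at every time, Pfkfb3 starts apart and meets at 2 h, and Pfkp and Hif1a start together and separate by 2 h.

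In lower glycolysis, 5 of 10 genes were lower in FosKO up to 1 h and 4 of 10 after 2 h, and the other members did not pass the test. Over all tested genes the shares called lower were 15.9%, 19.7%, 15.9% and 20.3% in order of time. The median difference of the 10 genes was -0.16, -0.13, -0.15 and -0.09 at the 4 times, beside 0 over all tested genes at each time. Eno2 (chr6:124760053-124769673), the enolase known from neurons and from hypoxia, lay in LysM-Cre at 7.63, 7.64 and 7.59 without LPS, then 7.73, 7.89 and 7.86 after 0.5 h, 7.94, 7.79 and 7.93 after 1 h, and finally 8.31, 8.29 and 8.20 after 2 h. In FosKO Eno2 lay at 7.37, 7.11 and 7.12 without LPS, then 7.53, 7.50 and 7.48 after 0.5 h, 7.47, 7.44 and 7.34 after 1 h, and finally 7.35, 7.19 and 7.37 after 2 h. The groups did not overlap at any time, and the difference grew from -0.42 (SE 0.07, limma adjusted p = 6.46e-05) at 0 h to -0.96 (SE 0.07, limma adjusted p = 8.37e-10) at 2 h, when FosKO stood at 0.513 times LysM-Cre. The abundant enzymes differed by less. Eno1, the main enolase, was lower by 0.29 (SE 0.05, limma adjusted p = 0.000157) at 0 h, Aldoa, which splits fructose 1,6-bisphosphate, by 0.25 (SE 0.04, limma adjusted p = 5.13e-05), and Tpi1, which interconverts the resulting trioses, by 0.12 (SE 0.03, limma adjusted p = 0.00998). The call of Tpi1 was lost there without replicate 1 of LysM-Cre (limma adjusted p = 0.0585) or replicate 3 of FosKO (0.074). After 2 h it was lost without replicate 1 or 2 of LysM-Cre or replicate 1 or 3 of FosKO (limma adjusted p up to 0.106). Pkm, which makes pyruvate, was lower by 0.21 (SE 0.04, limma adjusted p = 0.000184) at 0 h, and at 2 h the difference was -0.09 (SE 0.04, limma adjusted p = 0.0623). Under quantile normalisation the latter was -0.42 and was called (limma adjusted p = 7.34e-06). Gapdh, Pgk1 and Pgam1, the enzymes between, were not called at any time. Under quantile normalisation all 3 were called lower after 2 h (Gapdh -0.22, Pgk1 -0.23 and Pgam1 -0.14), and Pgk1 also without LPS (-0.27) and after 1 h (-0.32). Gapdh had 13.26, 13.17 and 13.16 in the untreated LysM-Cre libraries and 13.15, 13.21 and 13.12 in the FosKO ones, and the 95% interval of its difference ran from -0.18 to 0.11. In the 5 low 18S libraries Gapdh lay between 13.39 and 13.44, and in the 19 high ones between 13.09 and 13.31. Several of these genes, Gapdh above all, have near-identical processed pseudogenes, and how their reads were shared is uncertain.

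The lactate dehydrogenase subunits moved in opposite directions. Ldhb (chr6:142490249-142507957), the heart-type subunit, lay in LysM-Cre at 4.88, 5.27 and 5.06 without LPS, then 5.14, 5.13 and 4.95 after 0.5 h, 5.03, 5.17 and 4.86 after 1 h, and finally 5.28, 5.05 and 5.12 after 2 h. In FosKO Ldhb lay at 5.65, 6.00 and 5.75 without LPS, then 5.86, 5.95 and 5.89 after 0.5 h, 5.88, 6.01 and 5.84 after 1 h, and finally 5.89, 6.06 and 5.85 after 2 h. No library of 1 genotype reached those of the other, and the difference was 0.73 (SE 0.11, limma adjusted p = 2.69e-05) without LPS and 0.89 (SE 0.11, limma adjusted p = 2.49e-06) at 1 h. Ldhb has a low value, for which differences may be understated if the authors' transformation shrinks them. Ldha, the muscle-type subunit that favours lactate formation, was lower by 0.11 (SE 0.03, limma adjusted p = 0.00926) at 0 h, 0.14 (SE 0.03, limma adjusted p = 0.0026) at 1 h and 0.09 (SE 0.03, limma adjusted p = 0.0346) at 2 h, and replicates decided some of these calls. The one without LPS was lost without replicate 1 of LysM-Cre (limma adjusted p = 0.0624) or replicate 3 of FosKO (0.0596). The one after 2 h was lost without replicate 1 or 2 of LysM-Cre or replicate 1 or 3 of FosKO (limma adjusted p up to 0.169).

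Among the pyruvate dehydrogenase genes the kinases differed, again in opposite directions. Pdk1 (chr2:71873224-71903858), the kinase known as a HIF-1 target, lay in LysM-Cre at 11.52, 11.44 and 11.48 without LPS, then 11.48, 11.47 and 11.48 after 0.5 h, 11.52, 11.49 and 11.41 after 1 h, and finally 11.29, 11.25 and 11.21 after 2 h. In FosKO Pdk1 lay at 11.09, 11.04 and 10.97 without LPS, then 11.01, 11.06 and 10.87 after 0.5 h, 11.11, 11.01 and 10.98 after 1 h, and finally 11.03, 11.05 and 10.95 after 2 h. Every FosKO library was below every LysM-Cre library of the same time, and the difference was -0.45 (SE 0.05, limma adjusted p = 2.57e-07) without LPS, -0.50 (SE 0.05, limma adjusted p = 4.4e-08) after 0.5 h, -0.44 (SE 0.05, limma adjusted p = 2.99e-07) after 1 h and -0.24 (SE 0.05, limma adjusted p = 0.000227) at 2 h. Pdk3 (chrX:93764607-93832201) lay in LysM-Cre at 7.46, 7.44 and 7.32 without LPS, then 7.56, 7.49 and 7.46 after 0.5 h, 7.72, 7.71 and 7.72 after 1 h, and finally 7.59, 7.43 and 7.57 after 2 h. In FosKO Pdk3 lay at 7.51, 7.77 and 7.91 without LPS, then 7.84, 7.85 and 8.08 after 0.5 h, 7.72, 7.70 and 7.76 after 1 h, and finally 7.92, 8.0 and 8.18 after 2 h. It was higher by 0.32 (SE 0.09, limma adjusted p = 0.0063) at 0 h, 0.42 (SE 0.09, limma adjusted p = 0.000507) at 0.5 h and 0.51 (SE 0.09, limma adjusted p = 6.05e-05) at 2 h, and the groups overlapped at 1 h. Leaving out FosKO replicate 3 ended its call in untreated cells (limma adjusted p = 0.0559). Pdk2 (chr11:95026258-95041354) lay in LysM-Cre at 7.45, 7.50 and 7.36 without LPS, then 7.52, 7.54 and 7.44 after 0.5 h, 7.22, 7.23 and 7.41 after 1 h, and finally 7.01, 6.97 and 6.88 after 2 h. In FosKO Pdk2 lay at 7.25, 7.34 and 7.28 without LPS, then 7.25, 7.23 and 7.06 after 0.5 h, 7.07, 7.21 and 7.30 after 1 h, and finally 7.04, 7.05 and 6.83 after 2 h. It was lower at 0.5 h (-0.32, SE 0.08, limma adjusted p = 0.00172) and had a difference of 0.02 (SE 0.08, limma adjusted p = 0.841) at 2 h. Pdha1 and Pdhb, the subunits of the enzyme itself, differed little between genotypes, with Pdha1 at 0.05 (SE 0.03, limma adjusted p = 0.182) and Pdhb at 0.08 (SE 0.03, limma adjusted p = 0.0463) at 0 h, a call that 10 of 16 alternatives did not keep.

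All 4 hypoxia-sensing genes were called lower in FosKO at 1 h, and 3 of 4 at the other times. Of all tested genes, 15.9%, 19.7%, 15.9% and 20.3% were lower in order of time. Egln1, the main prolyl hydroxylase, was lower by 0.31 (SE 0.03, limma adjusted p = 3.19e-07) without LPS and 0.47 (SE 0.03, limma adjusted p = 6.6e-10) at 2 h. Its untreated libraries lay at 9.97, 10.03 and 10.06 in LysM-Cre and at 9.71, 9.73 and 9.68 in FosKO, and at 2 h at 9.98, 10.00 and 9.98 against 9.54, 9.52 and 9.49, so that the groups did not overlap. Egln3, which HIF-1 itself induces, was lower by 0.34 (SE 0.10, limma adjusted p = 0.011) without LPS and 0.39 (SE 0.10, limma adjusted p = 0.00415) at 1 h. Leaving out FosKO replicate 3 ended the call in untreated cells (limma adjusted p = 0.0939). Bnip3 was lower by 0.30 (SE 0.05, limma adjusted p = 0.00016) without LPS and 0.31 (SE 0.05, limma adjusted p = 7.25e-05) at 2 h, with untreated values of 9.41, 9.34 and 9.38 in LysM-Cre and 9.08, 9.07 and 9.08 in FosKO. Hif1a (chr12:73901375-73947530) lay in LysM-Cre at 11.52, 11.58 and 11.59 without LPS, then 11.58, 11.64 and 11.66 after 0.5 h, 11.93, 11.99 and 11.99 after 1 h, and finally 12.49, 12.53 and 12.56 after 2 h. In FosKO Hif1a lay at 11.58, 11.63 and 11.70 without LPS, then 11.62, 11.68 and 11.77 after 0.5 h, 11.85, 11.87 and 11.90 after 1 h, and finally 12.27, 12.24 and 12.31 after 2 h. The groups overlapped at 0 and 0.5 h, and FosKO was lower by 0.26 (SE 0.04, limma adjusted p = 7.31e-06) at 2 h. The smaller difference at 1 h (-0.10, SE 0.04, limma adjusted p = 0.0423) was not called without any of the 6 libraries other than LysM-Cre replicate 1 (limma adjusted p between 0.0513 and 0.128). Within the high 18S libraries, with 1 from LysM-Cre, that difference was -0.05. Within the low ones, with 1 from FosKO, it was -0.14.

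Dividing each library's linear value by the length of the gene's principal transcript allowed the isozymes of 1 step to be set side by side. These shares are descriptions, with no test of their own. Hk3 made up 72.8% ± 0.74 (SD, n = 3) of the summed hexokinase value in untreated LysM-Cre and 79.8% ± 0.92 in FosKO, whereas Hk1 made up 22.1% ± 0.63 and 15.3% ± 0.60. Among the PFKFB genes Pfkfb4 was the largest share in untreated LysM-Cre (52.0% ± 1.2) with Pfkfb3 at 31.9% ± 0.70. In untreated FosKO the order was turned, with Pfkfb3 at 48.4% ± 4.3 and Pfkfb4 at 38.7% ± 4.0, and the libraries of these genes came close (43.7% at the lowest for Pfkfb3 and 42.9% at the highest for Pfkfb4). After 2 h of LPS Pfkfb3 reached 63.1% in both genotypes (SD 2.5 in LysM-Cre and 3.1 in FosKO). Pfkp made up 75.1% ± 0.64 of phosphofructokinase at 2 h in LysM-Cre and 82.8% ± 0.74 in FosKO, and Pfkl 20.1% ± 0.47 and 12.8% ± 0.78. Pdk1 was the largest share of the kinases in both genotypes (77.7% ± 1.1 and 70.3% ± 2.7 without LPS), followed by Pdk3 in FosKO (17.5% ± 2.5), while Pdk2 (10.9% ± 0.59) and Pdk3 (11.3% ± 0.51) did not separate in LysM-Cre. Eno1 (98.7% ± 0.088) and Ldha (99.6% ± 0.054) made up nearly all of their families in LysM-Cre, so that Eno2 and Ldhb were minor isozymes at 0.898% ± 0.023 and 0.359% ± 0.054.

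**Figure D3:**
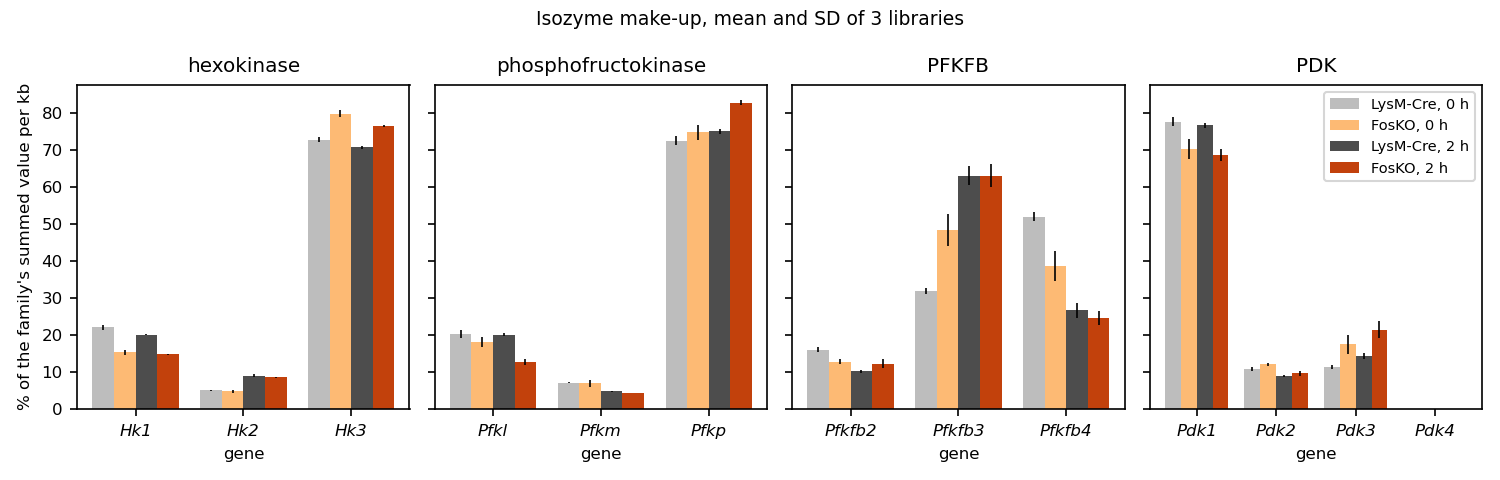
Share of each isozyme (y axis, percent of the family's summed linear value per kilobase of transcript) in 4 enzyme families, for LysM-Cre and FosKO at 0 and 2 h. Bars are means and lines are the SD of 3 libraries. Pfkfb3 holds 31.9% of its family in untreated LysM-Cre, 48.4% in untreated FosKO and 63.1% in both at 2 h.

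LPS changed few of the 32 genes at 0.5 h and more later. In LysM-Cre 1 gene (Hk2) was higher and 0 lower after 0.5 h, 10 higher and 1 lower after 1 h, and 9 higher and 4 lower after 2 h. Of all tested genes, 5.09% were higher and 2.15% lower after 0.5 h. After 1 h, 19.2% were higher and 16.5% lower. After 2 h, 60.8% were called in either direction, and 30.6% were higher. In FosKO 2 genes (Hk3 and Eno2) were higher and 0 lower after 0.5 h, 9 higher and 1 lower after 1 h, and 15 higher and 4 lower after 2 h. Of all tested genes, 4.45% were higher and 1.47% lower after 0.5 h. After 1 h, 17.6% were higher and 15% lower. After 2 h, 32.6% were higher and 29.5% lower. At an unadjusted p under 0.05 limma also found 0 genes lower at 0.5 h in either genotype. The median change at 2 h was 0.08 in LysM-Cre and 0.12 in FosKO, beside -0.02 and 0.00 over all tested genes. The small rises of the abundant enzymes depended on the scaling. With quantile normalisation of the libraries the counts were 7 higher and 16 lower at 2 h in LysM-Cre and 6 and 14 in FosKO, and at 1 h 5 and 11 in LysM-Cre and 4 and 11 in FosKO. Of the main calls at 2 h, 10 of 13 in LysM-Cre and 7 of 19 in FosKO were called the same way in both. After 1 h in FosKO, 5 genes were called instead of 10 when the untreated replicate 3 was left out, and also when replicate 2 of the 1 h group was. With only the high 18S libraries the calls at 1 h were 6 in LysM-Cre and 5 in FosKO. The 2 calls after 0.5 h in FosKO became 1 without any untreated replicate or without replicate 2 or 3 of the 0.5 h group. That of Hk2 in LysM-Cre was lost without untreated replicate 2 or without replicate 1 or 3 of the 0.5 h group.

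**Figure D4:**
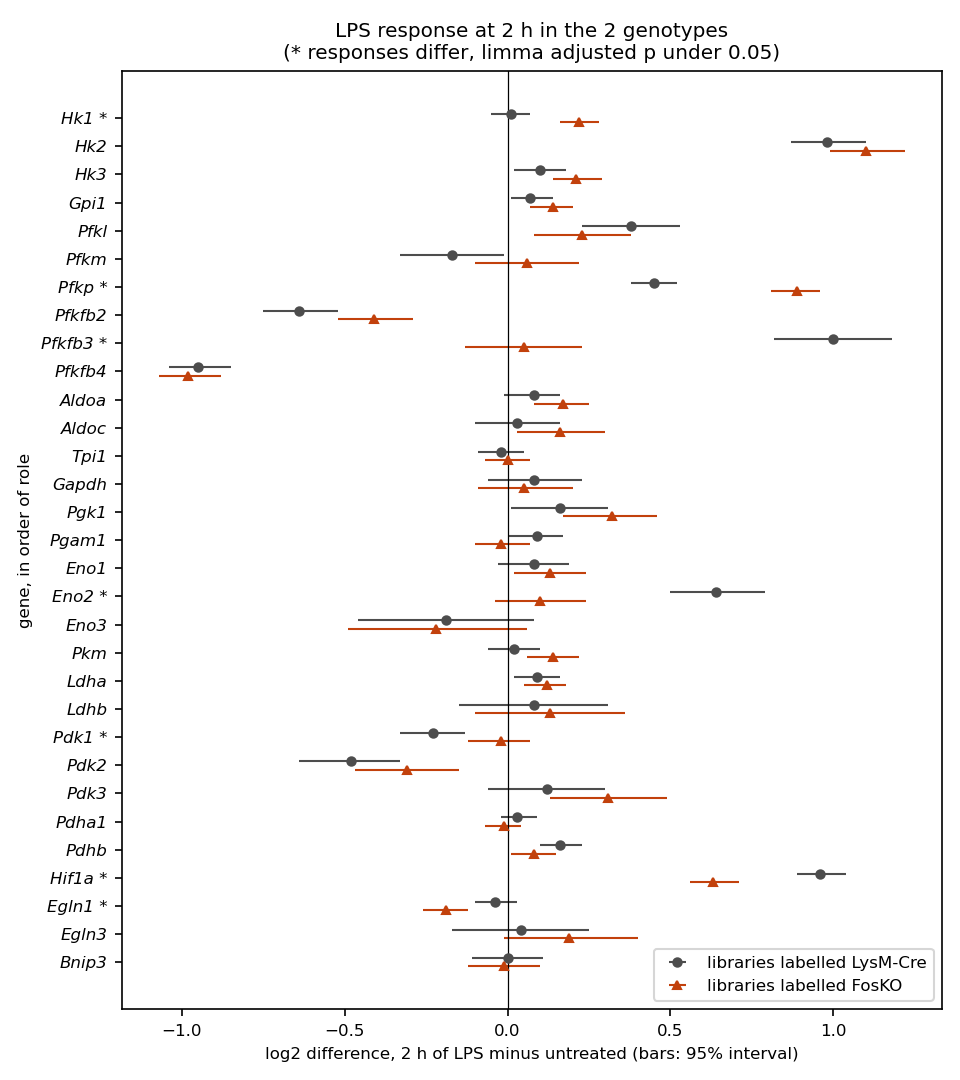
Change after 2 h of LPS (x axis, log2 difference from untreated cells of the same genotype) for the 31 tested genes, in order of role (y axis), in LysM-Cre (circles) and FosKO (triangles). Bars are 95% intervals, and asterisks mark the 7 genes whose changes differed between genotypes (limma adjusted p under 0.05). Pfkfb3, Eno2 and Hif1a lie further right in LysM-Cre and Pfkp further right in FosKO. Small positive changes of abundant genes such as Aldoa and Pkm turn negative under quantile normalisation.

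The genes with the largest LPS changes kept their direction under quantile normalisation. Pfkfb3 rose in LysM-Cre by 1.00 (SE 0.09, limma adjusted p = 3.09e-09) at 2 h, Hk2 by 0.98 (SE 0.06, limma adjusted p = 2.44e-12), Hif1a by 0.96 (SE 0.04, limma adjusted p = 2.84e-15), Eno2 by 0.64 (SE 0.07, limma adjusted p = 5.68e-08), Pfkp by 0.45 (SE 0.03, limma adjusted p = 3e-10) and Pfkl by 0.38 (SE 0.07, limma adjusted p = 9.11e-05). At 1 h in LysM-Cre the largest rises were those of Pfkfb3 (0.53, SE 0.09, limma adjusted p = 6.13e-05), Hk2 (0.41, SE 0.06, limma adjusted p = 4.46e-06) and Hif1a (0.41, SE 0.04, limma adjusted p = 1.27e-08). The 4 genes that were lower at 2 h in LysM-Cre were Pfkfb4 (-0.95, SE 0.05, limma adjusted p = 2.11e-13), Pfkfb2 (-0.64, SE 0.05, limma adjusted p = 2.33e-09), Pdk2 (-0.48, SE 0.08, limma adjusted p = 1.16e-05) and Pdk1 (-0.23, SE 0.05, limma adjusted p = 0.000191). In FosKO Pfkfb4 (-0.98, SE 0.05, limma adjusted p = 1.15e-13), Pfkfb2 (-0.41, SE 0.05, limma adjusted p = 1.53e-06) and Pdk2 (-0.31, SE 0.08, limma adjusted p = 0.00129) were lower as well, and Hk2 (1.10, SE 0.06, limma adjusted p = 3.15e-13) and Pfkp (0.89, SE 0.03, limma adjusted p = 3.4e-15) were higher. Within the PFKFB family the isoforms thus went in opposite directions in LysM-Cre, Pfkfb3 up and Pfkfb2 and Pfkfb4 down, under the main scaling and under quantile normalisation. Ldhb had a change of 0.08 (SE 0.11, limma adjusted p = 0.568) in LysM-Cre, and Bnip3 of 0.00 (SE 0.05, limma adjusted p = 0.98).

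The LPS response itself differed between the genotypes for 0 genes at 0.5 h, with 0 also at an unadjusted p under 0.05, 1 lower at 1 h, and 3 higher and 4 lower at 2 h in FosKO. The shares of all tested genes in the limma fit were 0.0144% higher and 0.101% lower after 0.5 h, then 0.489% and 0.727% after 1 h, then 7.27% and 7.7% after 2 h. Pfkfb3 accounted for the gene at 1 h, with a difference in response of -0.66 (SE 0.12, limma adjusted p = 0.00535). With only the high 18S libraries that value was -0.56 and the limma adjusted p 0.22. At 2 h the difference was -0.95 (SE 0.12, limma adjusted p = 1.86e-05), and the change of Pfkfb3 in FosKO was 0.05 (SE 0.09, limma adjusted p = 0.646). The same untreated libraries enter this value and the genotype difference without LPS. Eno2 responded less in FosKO by 0.54 (SE 0.10, limma adjusted p = 0.000546), and its change there was 0.10 (SE 0.07, limma adjusted p = 0.213). Hif1a rose in both genotypes, but by 0.63 (SE 0.04, limma adjusted p = 3e-12) in FosKO, with a difference of -0.33 (SE 0.05, limma adjusted p = 0.000138). Pfkp went the other way and rose more in FosKO, by 0.44 (SE 0.05, limma adjusted p = 2.19e-06). Hk1 had a difference in response of 0.21 (SE 0.04, limma adjusted p = 0.0009), and its change in FosKO, 0.22 (SE 0.03, limma adjusted p = 7.3e-07), became -0.05 under quantile normalisation. Pdk1 (0.21, SE 0.07, limma adjusted p = 0.0374) and Egln1 (-0.16, SE 0.05, limma adjusted p = 0.0268) passed the test narrowly. Under quantile normalisation neither was called (Pdk1 0.20, limma adjusted p = 0.0937, and Egln1 -0.13, limma adjusted p = 0.112). The call of Pdk1 was lost without any of 8 of the 12 libraries (LysM-Cre replicates 1 and 3 and FosKO replicates 2 and 3 at 0 h, LysM-Cre replicates 2 and 3 and FosKO replicates 1 and 2 at 2 h), with limma adjusted p up to 0.0923. The call of Egln1 was lost without any of 4 libraries, namely untreated LysM-Cre replicate 1, untreated FosKO replicate 2 and, after 2 h, replicate 2 of LysM-Cre and 3 of FosKO (limma adjusted p up to 0.0803). The response of Hk2 did not pass the test for a difference (0.12, SE 0.08, limma adjusted p = 0.337), with a 95% interval from -0.04 to 0.29.

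Genes around these enzymes were counted from lists that hold none of the 32, under the main scaling. The genotype counts stand beside 15.9% lower and 19.5% higher of all tested genes without LPS, and 20.3% and 24.4% after 2 h. The counts for 2 h of LPS in LysM-Cre stand beside 30.6% higher and 60.8% called in either direction. Of 7 glucose and lactate transporter genes, 4 were lower and 1 higher in FosKO at 0 h, and 2 each at 2 h. Slc2a3, a glucose transporter, was lower by 0.94 (SE 0.11, limma adjusted p = 8.85e-07) at 0 h, Slc16a3, the lactate exporter of glycolytic cells, was lower by 0.37 (SE 0.05, limma adjusted p = 4.73e-06), and Slc2a6, a lysosomal hexose transporter, was higher by 0.70 (SE 0.09, limma adjusted p = 5.89e-06). At 2 h of LPS in LysM-Cre 5 of the 7 were higher and 2 lower, with Slc2a6 up by 2.11 (SE 0.09, limma adjusted p = 3.89e-14), Slc2a1 by 0.88 (SE 0.05, limma adjusted p = 1.4e-12) and Slc16a1, another lactate carrier, by 0.72 (SE 0.06, limma adjusted p = 8.68e-10). Slc16a1 rose more in FosKO, with a difference in response of 0.72 (SE 0.08, limma adjusted p = 4.25e-06). Of 12 tested genes of glycogen handling and accessory glycolysis, 3 were lower and 2 higher in FosKO at 0 h, among them Adpgk (-0.29, SE 0.04, limma adjusted p = 2.2e-05) and Tigar (0.27, SE 0.05, limma adjusted p = 0.0001), a fructose bisphosphatase-like enzyme. Of 8 genes of pyruvate entry, 4 were higher at 0 h, led by Mpc1, a subunit of the mitochondrial pyruvate carrier (0.30, SE 0.03, limma adjusted p = 1.85e-07). At 2 h of LPS in LysM-Cre 3 of the 8 were higher and 3 lower. Among them Pdhx was higher by 0.44 (SE 0.05, limma adjusted p = 4.11e-07). Pdp1, a phosphatase that reactivates pyruvate dehydrogenase, was lower by 0.70 (SE 0.06, limma adjusted p = 5.9e-10). Of 7 pentose phosphate genes 3 were lower and 1 higher at 0 h, with Tkt at -0.17 (SE 0.03, limma adjusted p = 0.000117) and Pgd at -0.15 (SE 0.03, limma adjusted p = 0.00109). Of 17 genes of the citric acid cycle with Acod1, 5 were higher and 1 lower at 0 h and 7 higher and 2 lower at 2 h. Acod1, which makes itaconate, was higher in FosKO by 1.77 (SE 0.16, limma adjusted p = 6.52e-08) without LPS and 0.94 (SE 0.16, limma adjusted p = 8.88e-05) at 2 h, and rose with LPS in LysM-Cre by 4.31 (SE 0.16, limma adjusted p = 3.62e-15).

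Of 5 tested partners and regulators of HIF-1α, 1 was higher and 1 lower at 0 h, and the latter was Epas1, which encodes HIF-2α (-0.39, SE 0.09, limma adjusted p = 0.00142). Of 17 tested genes known as HIF targets outside glycolysis, which include Slc2a1 of the transporters, 7 were lower and 5 higher in FosKO without LPS (15.9% and 19.5% of all tested genes), and 6 and 3 after 2 h (20.3% and 24.4%), with a median difference of -0.09 and -0.04. Ankrd37 (-0.81, SE 0.12, limma adjusted p = 2.85e-05), Mxi1 (-0.68, SE 0.07, limma adjusted p = 4.21e-07) and Vegfa, which encodes a growth factor of blood vessels (-0.43, SE 0.09, limma adjusted p = 0.000805), were lower at 0 h. At 2 h Ndrg1 was lower (-0.69, SE 0.06, limma adjusted p = 1.92e-08) and Adm, which encodes adrenomedullin, was higher (0.74, SE 0.10, limma adjusted p = 5.04e-06). With LPS for 2 h in LysM-Cre 7 of the 17 were higher and 5 lower (30.6% of all tested genes were higher and 60.8% called either way), among them Adm (2.47, SE 0.10, limma adjusted p = 1.3e-14) and Ankrd37 (-1.65, SE 0.12, limma adjusted p = 2.61e-10).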

How the data were processed

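RNA from 24 libraries of bone marrow-derived macrophages was sequenced, 3 for each genotype and time. The authors deposited 1 table of normalised log2 values per gene, made after mapping with STAR 2.5.2a and counting with RSEM 1.2.31, with DESeq2 (1.16.1 per the labels) named among the tools. The step that gave the log2 values was not given in the sources used here. The values resemble a regularised logarithm, which shrinks differences of low genes, and the read count of each library is not in the table.

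Values were used as deposited. The design had foreseen linear values with a pseudocount of 1, which the log2 values made unnecessary. Genes with a linear value of 5 or more in at least 3 libraries were kept (13901). One model with 8 group means and 16 residual degrees of freedom was fitted with limma 3.58.1 in R 4.3.3, with a trended prior variance, and 13 comparisons were adjusted by the Benjamini-Hochberg method over 13901 genes. An exact permutation test of 3 against 3 libraries cannot give a two-sided p below 0.1 and was not used. The fit was tested on simulated data.

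Genes named with values in every library were those called in a genotype comparison or a difference in response with a log2 size of 0.5 or more at any time, plus up to 6 with the largest called changes in each direction after 2 h of LPS in LysM-Cre (13 genes). The genes and lists were chosen with earlier results of these data known. Promoters came from RefSeq on GRCm38.p6, gene positions from GRCm38 (mm10), and transcript lengths from the GENCODE principal isoform. Replicate numbers were not treated as pairs, because the labels give no pairing and 2 of 12 same-numbered pairs across genotypes had a correlation of deviations over 0.1, although within a genotype 20 of 24 libraries correlated best with their own number. In all, 11 alternatives were tried, and each of the 24 libraries was left out in turn.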

Additional observations from a re-analysis of the deposited data

Results flagged for a closer look

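For 7 genes the LPS response differed between LysM-Cre and FosKO by the limma test of the difference itself, and each is given as FosKO minus LysM-Cre on the log2 scale. Pfkfb3 had a difference of -0.66 after 1 h and -0.95 after 2 h. After 2 h Eno2 had -0.54, Hif1a -0.33 and Egln1 -0.16, while Pfkp had 0.44, Hk1 0.21 and Pdk1 0.21. The 7 genes are out of 31 tested, beside 15% of all tested genes after 2 h. Under quantile normalisation Pdk1 and Egln1 were not called (limma adjusted p = 0.0937 and 0.112). Untreated libraries enter every one of these values as well as the untreated genotype comparison. The causes were not tested.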

How the results depend on the processing

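Of 7285 recomputed values, 176 lost a call and 108 gained one with the sign unchanged. Another 41 that were called before or after changed sign, all 41 under quantile normalisation, and some of them also lost or gained a call. The other 6960 kept their side of the threshold, and uncalled values among them changed sign under several settings. For the genotype difference after 2 h the log2 values became Hk1 -0.01 and Pdha1 -0.08. For LPS after 1 h in LysM-Cre the log2 values became Hk1 -0.13, Hk3 -0.12, Gpi1 -0.16, Pfkp -0.04, Aldoa -0.22, Tpi1 -0.22, Pgam1 -0.05, Eno1 -0.22, Pkm -0.17, Ldha -0.16 and Pdha1 -0.09. For LPS after 2 h in LysM-Cre the log2 values became Hk1 -0.21, Hk3 -0.24, Gpi1 -0.27, Aldoa -0.36, Gapdh -0.25, Pgam1 -0.25, Eno1 -0.32, Pkm -0.32, Ldha -0.22 and Pdha1 -0.16. For LPS after 1 h in FosKO the log2 values became Hk3 -0.13, Gpi1 -0.08, Aldoa -0.19, Pgam1 -0.18, Eno1 -0.18, Pkm -0.20 and Ldha -0.21. For LPS after 2 h in FosKO the log2 values became Hk1 -0.05, Hk3 -0.24, Gpi1 -0.25, Aldoa -0.32, Tpi1 -0.38, Gapdh -0.36, Pgk1 -0.13, Eno1 -0.31, Pkm -0.43, Ldha -0.33 and Pdhb -0.03. The number of genes called after 2 h of LPS in LysM-Cre was 23 under quantile normalisation instead of 13. After 0.5 h in FosKO it was 1 instead of 2 with quantile normalisation, without the filter, without the variance trend or with the high 18S libraries alone, and 0 with the compared groups alone. After 1 h in FosKO it was 4 with the compared groups alone and 5 with the high 18S libraries, and in LysM-Cre 6 with the latter. The genotype count after 1 h was 11 with the high 18S libraries, and that without LPS was 14 with the compared groups alone. For the difference in response after 1 h those libraries gave 0 calls (Pfkfb3 -0.56). Leaving out single libraries gave 15 to 20, 17 to 19, 16 to 18 and 16 to 19 genotype calls in order of time, 0 to 1, 10 to 11 and 11 to 16 LPS calls in LysM-Cre, 1 to 2, 5 to 11 and 16 to 19 in FosKO, and 0 to 0, 1 to 1 and 5 to 7 differences in response. The causes were not tested.

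With the replicate number as a block, 2 genes differed in response after 1 h instead of 1, also with a block for each genotype and number, the addition being Hif1a (-0.17). Same-numbered libraries of the 2 genotypes correlated in their deviations at r from -0.53 to 0.31, and within a genotype at -0.25 to 0.71, although 20 of 24 libraries correlated best with their own number, which is a hint from the data and not the design. The block moved no other count by over 1.5 times. A block for each genotype and number gave 19 LPS calls instead of 13 after 2 h in LysM-Cre (14 higher and 5 lower). After 1 h in LysM-Cre it gave 14 instead of 11. Read counts per library are not in the table, and 3 libraries a group limit what small differences can show.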
